A study of Mus musculus with 16 samples.

Results

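The genes of epithelial adhesion and of the tight junction were examined in primary mammary tumors from PyMT mice with and without a gene trap in *Resf1*. They are 9 of the 23609 genes in the table, picked by name for their role: *Epcam*, *Cdh1*, *Cldn3*, *Cldn4*, *Cldn7*, *Ocln*, *Tjp1*, *F11r* and *Cgn*. All 9 were among the 21034 genes that passed the filter on low values. Total RNA was sequenced from 5 wildtype tumors, from MMTV-PyMT mice with unaltered *Resf1*, and from 5 gene trap tumors, from littermates that carried MMTV-PyMT and were *Resf1* +/-. The trap is a lentiviral insertion in exon 1 of *Resf1* that cuts its transcript short and brings in EGFP fused to cre. The trap was bred on C57BL/6 and crossed to FVB mice with the transgene, so both groups are F1 animals. Both groups also carry the polyoma middle T antigen, driven by the MMTV promoter in the mammary epithelium, which induces the tumors. Tumors were taken at the humane endpoint, the labels give no age, and a replicate number shared between the groups does not mean a shared animal. The labels describe 16 tumors, and the 6 others, 3 per group, were not analysed here.

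Epithelial cells are held to each other by the adherens junction, where E-cadherin binds its like on the next cell and is tied to actin through the catenins. Above it, the tight junction seals the space between cells with strands of claudins, to which occludin and junctional adhesion molecules add. Scaffold proteins such as ZO-1 and cingulin couple these membrane proteins to the cytoskeleton. *Epcam* encodes an adhesion molecule of epithelial cells that binds claudin-7. Loss of these genes is a usual mark of epithelial-mesenchymal transition (EMT), the change by which epithelial cells take on mesenchymal traits, and whether EMT programs differ between the genotypes was a question of the study.

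No difference between wildtype and gene trap tumors passed the test for any of the 9 genes. At an adjusted p under 0.05 the count was 0 of 9, and 0% of all 21034 genes tested passed (limma, Benjamini-Hochberg adjustment). At an unadjusted p under 0.05 it was also 0 of 9, against 2.28% of all genes tested. The ranges of the 2 groups overlapped for all 9 genes, and 0.528% of all genes tested had groups without overlap. In gene trap tumors 4 genes had the higher mean on the log2 scale and 5 the lower, with a median log2 fold change of -0.03 over the 9 genes and of 0.00467 over all genes tested. Regardless of sign, the median log2 fold change was 0.0609 for the 9 genes and 0.0980 for all genes tested. For the 4597 genes whose mean reached that of the lowest of the 9 it was 0.0585.

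Values are estimated counts that the authors had normalized between tumors before deposition, called normalized values here. The sequencing depth of each tumor is therefore unknown, and the number of tumors limits the precision. The column totals were 32151583 to 37121386 in wildtype and 31995078 to 42153593 in gene trap tumors. *Resf1*, which carries the trap, was at a normalized value of 3517 to 4487 in wildtype and 3066 to 4029 in gene trap tumors. The groups overlapped (log2 fold change -0.22, standard error 0.09, limma unadjusted p = 0.0313, adjusted p = 0.9997, exact two-sided permutation p = 0.0635). The first principal component, with 31.1% of the variance, set gene trap replicate 2, at 91.8, apart from the rest, at -18.6 to -4.78. Of the 9 genes, *Cldn3*, *Cldn7* and *Cgn* were highest in this tumor, and their log2 fold changes are given with and without it.

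The epithelial identity of the tumors was checked on markers. The luminal markers *Krt8* and *Krt18*, keratins of the secretory epithelium, had normalized values of 16809 to 24801 and of 18434 to 35379 over the 10 tumors. Their log2 fold changes were -0.07 (exact permutation p = 0.603) and 0.13 (exact permutation p = 0.516). Summed markers of basal and myoepithelial cells were at 7242 to 9914 in wildtype and 5426 to 7208 in gene trap tumors, and the groups did not overlap. The exact two-sided permutation p was 0.00794, the smallest that 252 arrangements of 5 and 5 tumors allow, and 0.0714 after adjustment over the 9 marker lists compared. All 7 markers of this list were in the table and none was under 10 in every tumor. In limma's test 2 of the 7 had an unadjusted p under 0.05, against 2.28% of all genes tested. They were the basal keratin *Krt17* (log2 fold change -0.63) and the smooth muscle myosin *Myh11* (log2 fold change -0.67). The part of these cells in the values of the 9 genes was not tested. In whole tumors, fewer cells of a type and less RNA per cell cannot be told apart.

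The other marker sums overlapped between genotypes. Luminal markers ranged from 41505 to 61736 in wildtype and from 42352 to 66958 in gene trap tumors (exact permutation p = 0.802). Fibroblast markers ranged from 39061 to 83926 and from 51724 to 120046 (exact p = 0.603). Sums for endothelium, macrophages, T cells, B cells, adipocytes and skeletal muscle gave exact p between 0.381 and 0.921. Of the 50 markers listed, 43 were in the table, with 1 of 4 for B cells, 3 of 6 for adipocytes and 3 of 4 for skeletal muscle.

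**Figure D1:**
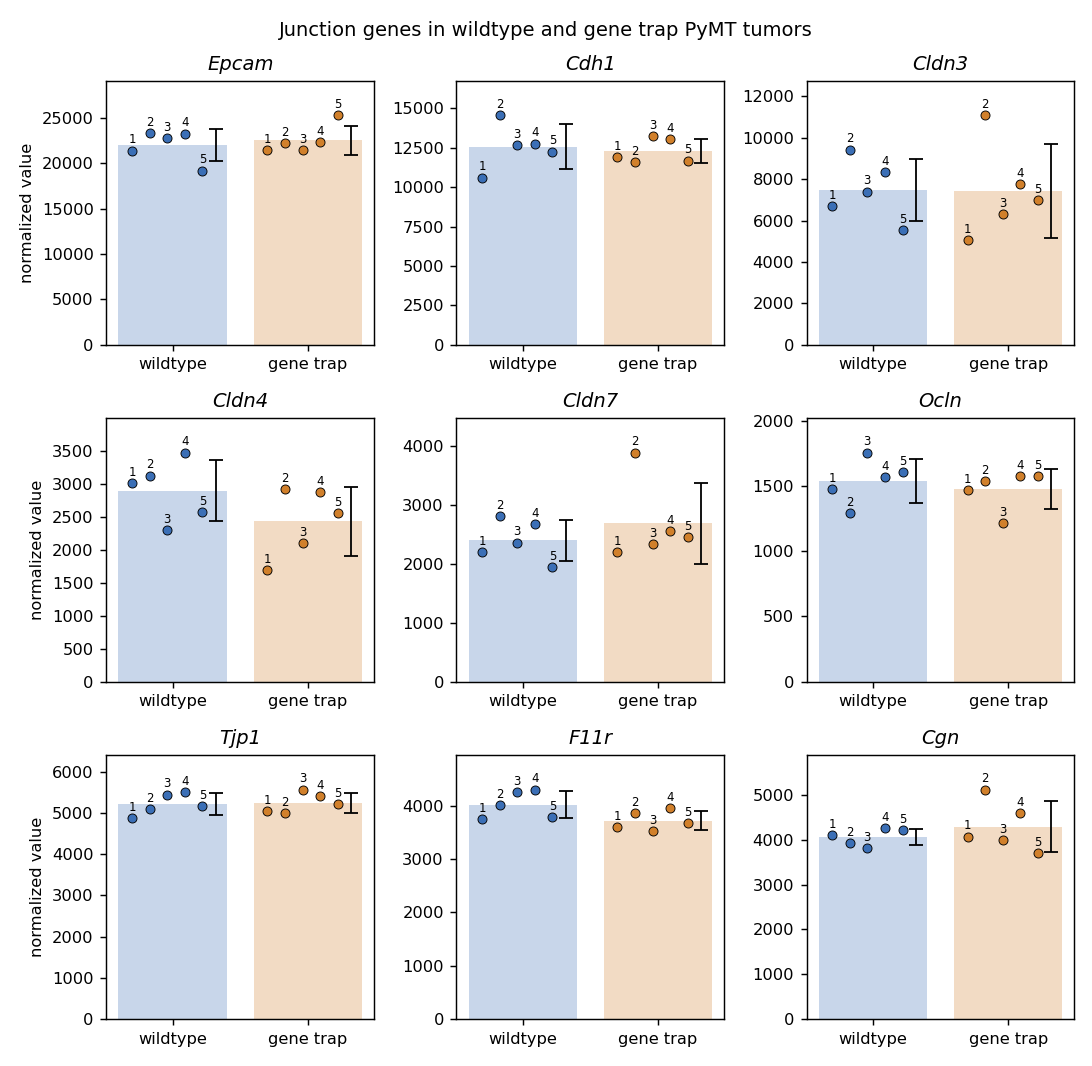
Normalized value of each of the 9 junction genes in the 5 wildtype (blue) and 5 gene trap (orange) tumors. Points are tumors with their replicate number, bars are group means and error bars are SD (n = 5); the groups overlap in every panel, and gene trap replicate 2 is the highest point for *Cldn3*, *Cldn7* and *Cgn*.

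The adhesion molecule *Epcam* (ENSMUSG00000045394) had the highest values of the 9 genes. In wildtype replicates 1 to 5 its normalized values were 21393, 23319, 22752, 23261 and 19190, and in gene trap replicates 1 to 5 they were 21412, 22218, 21475, 22314 and 25278. Gene trap replicate 5 was above every wildtype tumor, and the other 4 gene trap tumors were inside the wildtype range. The log2 fold change, gene trap minus wildtype, was 0.04 (standard error 0.08, 95% interval -0.14 to 0.22). Neither limma's test (p = 0.664) nor the exact two-sided permutation test (p = 0.603) passed.

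*Cdh1* (ENSMUSG00000000303) encodes E-cadherin, the core protein of the adherens junction. It was at 10601, 14557, 12662, 12767 and 12264 in wildtype replicates 1 to 5 and at 11900, 11613, 13249, 13051 and 11684 in the gene trap replicates. All 5 gene trap tumors lay inside the wildtype range, which spanned from wildtype replicate 1 to wildtype replicate 2. The means were 12570 ± 1411 (SD, n = 5) and 12299 ± 787 (SD, n = 5). Their log2 difference was -0.03 (standard error 0.09, 95% interval -0.22 to 0.17). Neither test passed (limma p = 0.770, exact permutation p = 0.770).

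The 3 claudins form the strands of the tight junction, and with all tumors in they varied most between tumors. Normalized values of *Cldn3* (ENSMUSG00000070473) were 6680, 9424, 7397, 8327 and 5546 in wildtype replicates 1 to 5 and 5044, 11081, 6299, 7757 and 6990 in gene trap replicates 1 to 5. The highest tumor, gene trap replicate 2, and the lowest, gene trap replicate 1, carried the same genotype and differed 2.20 fold. The log2 fold change between genotypes was -0.03 (standard error 0.19, 95% interval -0.46 to 0.39, limma p = 0.862, exact permutation p = 0.881). Without gene trap replicate 2 it was -0.19.

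*Cldn4* (ENSMUSG00000047501) was at 3007, 3125, 2305, 3476 and 2575 in wildtype replicates and at 1696, 2920, 2102, 2881 and 2559 in gene trap replicates. Gene trap replicates 1 and 3 were below every wildtype tumor, and the other 3 were inside the wildtype range. The means were 2897 ± 462 (SD, n = 5) and 2431 ± 525.98 (SD, n = 5). The change of level in gene trap tumors was -16.9%, with a 95% interval from -34.5% to 5.36%. On the log2 scale this was -0.27 (standard error 0.16), the largest fitted difference among the 9 genes with all tumors in, and it did not pass the test (limma p = 0.115, exact permutation p = 0.183). With single tumors left out it ranged from -0.35 to -0.14 and did not pass either. It was -0.34 without gene trap replicate 2 and -0.14 without gene trap replicate 1, where the difference of *Cldn7*, at 0.21, was the larger in size.

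*Cldn7* (ENSMUSG00000018569) encodes the claudin that EpCAM binds. Wildtype replicates 1 to 5 had normalized values of 2197, 2807, 2363, 2682 and 1951, and gene trap replicates 1 to 5 had 2209, 3893, 2336, 2553 and 2453. Gene trap replicate 2 alone was above the wildtype range. The means were 2400 ± 350 (SD, n = 5) and 2689 ± 685 (SD, n = 5), and the log2 fold change was 0.14 (standard error 0.15, 95% interval -0.18 to 0.47, limma p = 0.358, exact permutation p = 0.50). Without gene trap replicate 2 the log2 fold change was 0.00294.

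Of the remaining membrane proteins, occludin, from *Ocln* (ENSMUSG00000021638), had the lowest values of the 9 genes. They were 1473, 1290, 1755, 1564 and 1604 in wildtype and 1466, 1534, 1212, 1577 and 1576 in gene trap replicates 1 to 5. Gene trap replicate 3 was below every wildtype tumor and the other 4 were inside the wildtype range. The log2 fold change was -0.06 (standard error 0.10, 95% interval -0.28 to 0.16, limma p = 0.552, exact permutation p = 0.556).

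*F11r* (ENSMUSG00000038235) encodes junctional adhesion molecule A, an immunoglobulin-like protein of the tight junction. It was at 3758, 4016, 4258, 4307 and 3787 in wildtype and at 3606, 3862, 3527, 3955 and 3676 in gene trap replicates. Gene trap replicates 1, 3 and 5 were below every wildtype tumor, and the other 2 were inside the wildtype range. The means were 4025 ± 256 (SD, n = 5) and 3725 ± 178 (SD, n = 5), a change of -7.39% in gene trap tumors with a 95% interval from -16.2% to 2.32%. The exact permutation p was 0.0794, the smallest among the 9 genes by that test, and the limma p was 0.119.

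The last 2 genes encode scaffold proteins of the cytoplasmic plaque. *Tjp1* (ENSMUSG00000030516), which encodes ZO-1, was at 4881, 5096, 5451, 5519 and 5166 in wildtype and at 5042, 4995, 5569, 5410 and 5222 in gene trap replicates. Its highest tumor was 1.14 times its lowest, the narrowest spread of the 9 genes. The log2 fold change was 0.01 (standard error 0.06, 95% interval -0.13 to 0.14, limma p = 0.912, exact permutation p = 0.873).

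*Cgn* (ENSMUSG00000068876) encodes cingulin, which links the plaque to actomyosin. Its values were 4097, 3924, 3816, 4252 and 4223 in wildtype and 4072, 5119, 3985, 4593 and 3696 in gene trap replicates. Gene trap replicates 2 and 4 were above every wildtype tumor, replicate 5 was below all of them, and the spread was wider in gene trap (4293 ± 564, SD, n = 5) than in wildtype tumors (4062 ± 189, SD, n = 5). This difference in spread was not tested. The log2 fold change was 0.07 (standard error 0.09, 95% interval -0.12 to 0.26, limma p = 0.435, exact permutation p = 0.460), and without gene trap replicate 2 it was 0.00533.

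**Figure D2:**
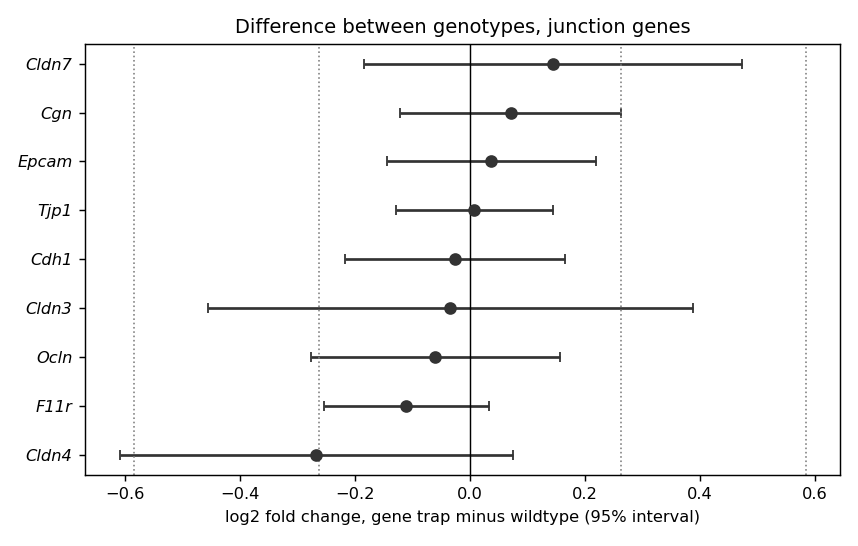
Log2 fold change, gene trap minus wildtype, of each of the 9 genes (points) with its 95% interval from limma (bars; n = 5 and 5), with dotted lines at 1.2 and 1.5 fold in each direction. Every interval includes 0, and the widest are those of *Cldn3*, *Cldn4* and *Cldn7*.

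The intervals set how large a difference these tumors leave room for. For 8 of the 9 genes the fitted difference was under 1.2 fold, and *Cldn4* was the exception. The 95% interval lay within 1.2 fold in both directions for *Epcam*, *Cdh1*, *Tjp1* and *F11r*. It lay within 1.5 fold for 8 of the 9 genes, again without *Cldn4*. With a weight for each tumor in the fit, *Cldn4* and *F11r* reached an unadjusted p under 0.05 in limma and no gene reached an adjusted p under 0.05.

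The level of each gene was then compared with that of the others. Since longer transcripts give more reads, levels were compared between genes per kilobase of the longest annotated transcript, as the median over the 10 tumors. *Epcam* was highest at a normalized value of 10915 per kilobase (9407 to 12391), followed by *Cldn3* at 5714 (4006 to 8801) and *Cdh1* at 2813 (2393 to 3286). In all 10 tumors *Epcam* was above *Cldn3* and *Cldn3* above *Cdh1*, with ranges that did not overlap. *Cldn7* at 1804, *F11r* at 1519 and *Cldn4* at 1502 per kilobase came next. *Cldn7* was above *F11r* in 9 of 10 tumors, while *F11r* was above *Cldn4* in 5 of 10, so these neighbours were not separated beyond their spread.

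The plaque proteins and occludin were lowest per kilobase. *Cgn* was at 814 (737 to 1021), *Tjp1* at 737 (692 to 790) and *Ocln* at 382 (299 to 433). *Cgn* was above *Tjp1* in 8 of 10 tumors and the ranges overlapped. With the union of all exons as the length, *Cgn* at 678 was below *Tjp1* at 731, so the order of these 2 depends on the gene model. *Tjp1* was above *Ocln* in all 10 tumors without overlap.

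With all tumors in, the spread between tumors of 1 genotype was widest for the 3 claudins among the 9 genes. The within-group SD of log2 values was 0.36 for *Cldn3*, 0.29 for *Cldn4* and 0.28 for *Cldn7*. Of the 4597 genes at or above the lowest mean of the 9, 93.8%, 88.8% and 87.3% had a lower SD than these 3, and their median SD was 0.146. *Ocln* was at 0.16, *Cgn* at 0.14, *Cdh1* at 0.13 and *Epcam* at 0.11. *F11r*, at 0.08, and *Tjp1*, at 0.07, had a lower SD than most genes of that level, since 7.44% and 3.59% of them were lower still. These places are a description and were not tested. Those of *Cldn3*, *Cldn7* and *Cgn* include gene trap replicate 2, their highest tumor. There *Cldn7* was at 3893 against 2209 to 2553 in the rest of its group. *Cldn3* was at 11081 against 5044 to 7757, and *Cgn* at 5119 against 3696 to 4593. The spread without this tumor was not computed.

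*Cldn3* and *Cldn7* varied together. Over the 10 tumors their log2 values had a Pearson r of 0.90 (permutation p = 0.000160) and a Spearman rho of 0.93 (permutation p = 0.000360). After adjustment over the 36 pairs of the 9 genes the p were 0.00576 and 0.0130, and no other pair passed. When gene trap replicates 1 and 2, the tumors farthest from the median of *Cldn3*, were left out, r was 0.94 over 8 tumors. With each genotype centred on its own mean r was 0.96. Leaving out single tumors gave values from 0.88 to 0.95. Without gene trap replicate 2 r was 0.88, and the pair did not pass (adjusted permutation p = 0.0832).

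The ratio of the normalized value of *Cldn7* to that of *Cldn3* lay between 0.298 and 0.352 in wildtype tumors and between 0.329 and 0.438 in gene trap tumors. Gene trap replicate 2 was the highest tumor for both genes and wildtype replicate 2 the next for both. The highest ratio was in gene trap replicate 1, which was lowest for *Cldn3* and 8th of the 10 tumors for *Cldn7*. This ratio was chosen after the values were seen and was not tested.

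*Cldn4* is next to *Cldn3* on the chromosome, with 0 protein-coding genes between them in the RefSeq order. Their r was 0.70 (permutation p = 0.0239, 0.430 after adjustment over the 36 pairs) and rho was 0.70 (permutation p = 0.0310), so the pair did not pass. Without the 2 tumors farthest from the median r was 0.60. Between *Cldn4* and *Cldn7* r was 0.43.

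**Figure D3:**
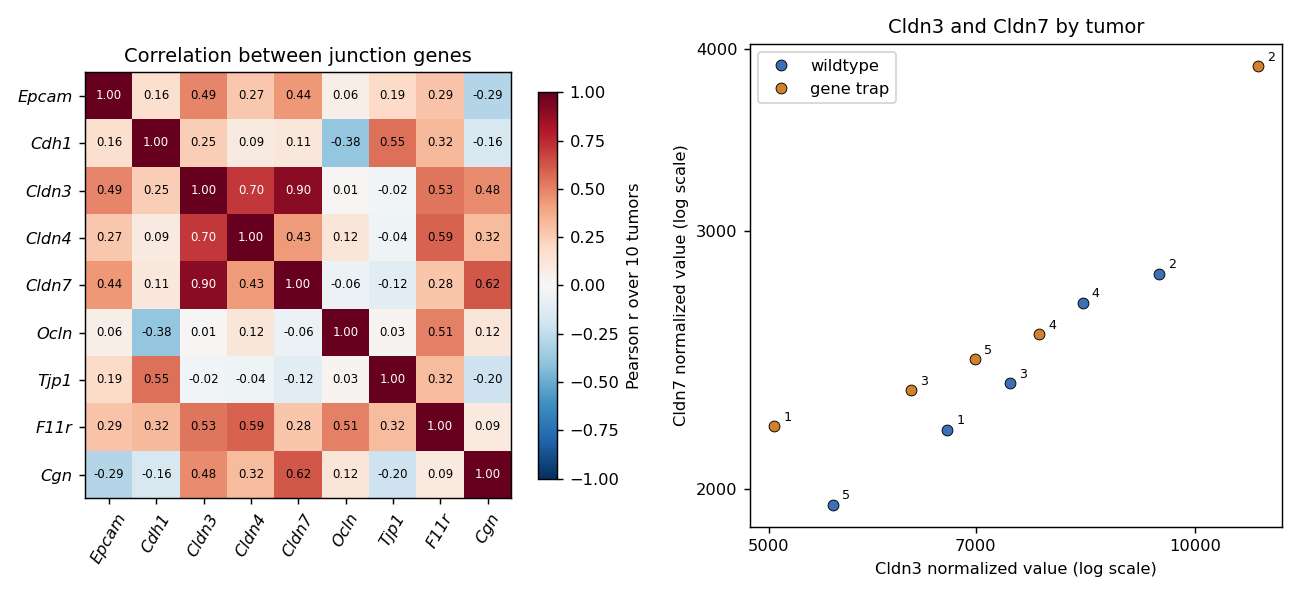
Left, Pearson r between the log2 normalized values of each pair of the 9 genes over 10 tumors (color scale from -1 to 1). Right, normalized values of *Cldn3* and *Cldn7* on log axes, with wildtype in blue, gene trap in orange and replicate numbers beside the points; the tumors follow 1 rising line (r = 0.90), with gene trap replicate 2 at its upper end.

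Across all 36 pairs the r ranged from -0.38 to 0.90. Of these pairs, 28 had a positive and 8 a negative r, with a median of 0.22. The same count was not made for pairs of other genes, so its background is unknown. *Epcam* and *Cdh1*, the 2 most used markers of epithelial cells, had an r of 0.16 (permutation p = 0.673). Without wildtype replicate 5 and gene trap replicate 5, the tumors farthest from the median of *Epcam*, it was 0.62. *Epcam* and *Cldn7* had an r of 0.44 (permutation p = 0.202), which was 0.78 without gene trap replicate 2. Their rho was 0.72 (permutation p = 0.0239, 0.279 after adjustment). *Epcam* and *F11r* had an r of 0.29, and of 0.88 without the 2 tumors farthest from the median of *Epcam*. None of these passed after adjustment. *Cdh1* and *Ocln* had an r of -0.38 (permutation p = 0.274). *Cdh1* and *Tjp1* had an r of 0.55 (permutation p = 0.0949, 0.642 after adjustment), which was 0.89 without wildtype replicates 1 and 2, the tumors farthest from the median of *Cdh1*. *Cldn7* and *Cgn* had an r of 0.62 (permutation p = 0.0706), which was -0.04 without gene trap replicate 2, so it rests on that tumor.

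The mean of *Krt8* and *Krt18* and the level of *Resf1* were set against the 9 genes after their values had been seen, in 18 relations, and 0 passed after adjustment. With the keratins r was 0.75 for *Cldn3* (permutation p = 0.0124, 0.111 after adjustment) and 0.73 for *Cldn7* (permutation p = 0.00845, 0.111 after adjustment). Without gene trap replicate 2 these were 0.63 and 0.59. With *Resf1*, r ranged from -0.49 for *Cgn*, which was -0.07 without gene trap replicate 2, to 0.35 for *F11r*. No r with *Resf1* over the 10 tumors had an unadjusted permutation p under 0.05. Within wildtype and within gene trap tumors, r with *Resf1* was 0.84 and -0.98 for *Cldn3*. It was 0.81 and -0.94 for *Cldn4* and 0.86 and -0.87 for *Cldn7*. *Epcam* and *F11r* also had opposite signs, and *Cdh1*, *Ocln*, *Tjp1* and *Cgn* the same sign. These r within 5 tumors were not tested.

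Relative to the keratins, each gene's difference between genotypes was recomputed as a ratio to *Krt8* and *Krt18*. *Cldn4* was then at a log2 fold change of -0.30 (standard error 0.16). The other 8 genes lay between -0.14 (*F11r*) and 0.11 (*Cldn7*). None of the 9 had an unadjusted p under 0.05 on this scale. For the genes other than the claudins this scale was less precise. The standard error rose from 0.06 to 0.16 for *Tjp1* and from 0.07 to 0.14 for *F11r*. For the claudins it was lower, at 0.16 against 0.19 for *Cldn3*.

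The genes whose values followed the mean z score of the 9 most closely were taken by rule. Outside the junction lists, 14007 genes with a mean value of 100 or more were each compared with the mean z score of the 9 genes over the 10 tumors. The 5 highest Pearson r were those of *Tmem189* (0.97), *Ruvbl2* (0.96), *Agap3* (0.95), *Lin37* (0.95) and *Pak4* (0.95). Without gene trap replicate 2 they were 0.94 to 0.97. Being the highest picked from 14007 genes over 10 tumors, these r are a description and were not tested. The mean z score was lowest in gene trap replicate 1 (-0.83) and highest in wildtype replicate 4 (0.74). In each genotype some tumors were above 0 and some below.

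The promoters of the claudins are shown because *Cldn3*, *Cldn4* and *Cldn7* include the pair that varied together, and that of *Epcam* because it is the most abundant gene. The E-box CACCTG, or CAGGTG on the other strand, is the sequence that the Snail and Zeb repressors bind. Windows of 300 bases, 250 before and 50 after each annotated start, were taken from RefSeq (build GRCm38.p6), and 8 of the 9 genes had at least 1 window, all except *Cdh1*. Each line gives 30 bases around an E-box, 5′ to 3′ on the gene's strand, with the E-box in capitals.

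*Cldn3*, chr5:134986233-134986262, + strand: caaagccacaggCAGGTGcaggggcagtct
*Cldn4*, chr5:134946931-134946960, - strand: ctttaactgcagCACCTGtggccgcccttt
*Cldn4*, chr5:134946906-134946935, - strand: cctttcttgttgCAGGTGcaggcaggaaag
*Cldn7*, chr11:69965312-69965341, + strand: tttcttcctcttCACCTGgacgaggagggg
*Cldn7*, chr11:69965352-69965381, + strand: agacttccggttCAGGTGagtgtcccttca
*Epcam*, chr17:87635780-87635809, + strand: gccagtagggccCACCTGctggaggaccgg
*Epcam*, chr17:87635948-87635977, + strand: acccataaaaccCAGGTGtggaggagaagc

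The hexamer was in 7 of the 10 windows of these 8 genes, *Cldn7* and *Ocln* having 2 windows each, and the windows of *Ocln* overlap and share a site. By gene it was in 6 of 8, the 4 shown with *Ocln* and *F11r*, and in no window of *Tjp1* or *Cgn*. A share by gene was not computed for other promoters. By window, the hexamer was in 20.2% of the 32851 promoter windows searched, which did not cover every chromosome. Of these, 14557 windows had a GC content in the range of the members, 52.0% to 70.3%, and 22.9% of them held it. The TATA box TATAAA was in 0 of the 10 windows of the members and in 13.6% of the 32851 windows, on either strand. A match describes these letters only.

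Transcriptional and splicing regulators of epithelial genes were read from the same tumors, among them the Snail, Zeb and Twist factors that bind E-boxes. *Esrp1*, an epithelial splicing regulator and the highest of the 12 regulators in mean value (not scaled by length, here and in the lists that follow), was at 5714 to 7023 in wildtype and 6235 to 6966 in gene trap tumors (log2 fold change 0.03, exact permutation p = 0.706). *Twist1*, a repressor of epithelial genes, had the smallest p of the list and was at 23.6 to 48.3 in wildtype (median 39.1) and 45.3 to 65.4 in gene trap tumors (median 48.1). Its log2 fold change was 0.47 (standard error 0.23, limma p = 0.0577, exact permutation p = 0.0635), and the groups overlapped. The repressors *Snai1* and *Zeb1* had log2 fold changes of 0.28 (exact permutation p = 0.270) and -0.20 (exact permutation p = 0.325). Among the 12 regulators 9 had a higher and 3 a lower mean log2 value in gene trap tumors, and 0 passed at an unadjusted p under 0.05. The list mixes repressors such as *Twist1* with epithelial regulators such as *Esrp1*, so this count has no single direction.

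The other parts of the junction were examined in 7 lists, with 81 of 89 genes in the table and all 81 tested. At an unadjusted p under 0.05 the count was 0 of 81, against 2.28% of all genes tested, and 0 of 81 had groups without overlap. Mean log2 values, from which all counts of direction were taken, were higher in gene trap tumors for 35 genes and lower for 46, with a median log2 fold change of -0.01. *Twist1* and *Dsc3* marked the extremes, at 0.47 and -0.81. *Dsc3*, a desmosomal cadherin, was at 18.5 to 118 in wildtype and 13.5 to 98.2 in gene trap tumors (standard error 0.60, exact permutation p = 0.262).

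Other claudins numbered 8 in the table, 5 with a higher and 3 with a lower mean log2 value in gene trap tumors. *Cldn2*, which forms channels for cations, was the highest in mean value, at 1719 to 2989 in wildtype and 1747 to 2574 in gene trap tumors (log2 fold change -0.07, exact permutation p = 0.683). *Cldn1* had the smallest p of this list. It was at 1814, 1846, 2796, 3028 and 2830 in wildtype and at 2132, 2000, 1750, 2242 and 1810 in gene trap replicates 1 to 5, and the groups overlapped through wildtype replicates 1 and 2 (log2 fold change -0.28, standard error 0.15, limma p = 0.0897, exact permutation p = 0.143). The other 8 claudins listed were not analysed here.

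Further genes of the tight junction encode membrane proteins and the plaque beneath them. Of 9 further membrane genes 3 had a higher and 6 a lower mean log2 value, with *Cxadr*, the coxsackievirus and adenovirus receptor, highest in mean value (5554 to 6492 and 4932 to 6098, log2 fold change -0.10, exact permutation p = 0.222). Of 21 plaque and polarity genes 9 had a higher and 12 a lower mean log2 value. *Cgnl1*, or paracingulin, was the highest of them in mean value, at 13907 to 18191 in wildtype and 15666 to 17463 in gene trap tumors (log2 fold change 0.03, exact permutation p = 0.762).

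The adherens junction is joined to actin by catenins, and the desmosome to keratin filaments by plakins. Of 13 adherens junction partners 6 had a higher and 7 a lower mean log2 value, and *Ctnnb1*, which encodes beta-catenin, was at 22813 to 28956 and 20164 to 26049 (log2 fold change -0.08, exact permutation p = 0.437). N-cadherin, from *Cdh2*, which cells gain in EMT, was at 93.7 to 178 in wildtype and 87.9 to 196 in gene trap tumors (log2 fold change 0.00622, exact permutation p = 0.984). Desmosome genes had a higher mean log2 value for 2 and a lower for 9 of 11, with *Dsp*, or desmoplakin, highest in mean value (5622 to 11713 and 8285 to 10592, log2 fold change 0.10, exact permutation p = 0.675). Among 7 *Epcam* relatives and proteases 1 had a higher and 6 a lower mean log2 value. *Spint2*, a protease inhibitor that protects EpCAM from cleavage, was at 7222 to 9404 and 7090 to 9443 (log2 fold change -0.04, exact permutation p = 0.722).

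**Figure D4:**
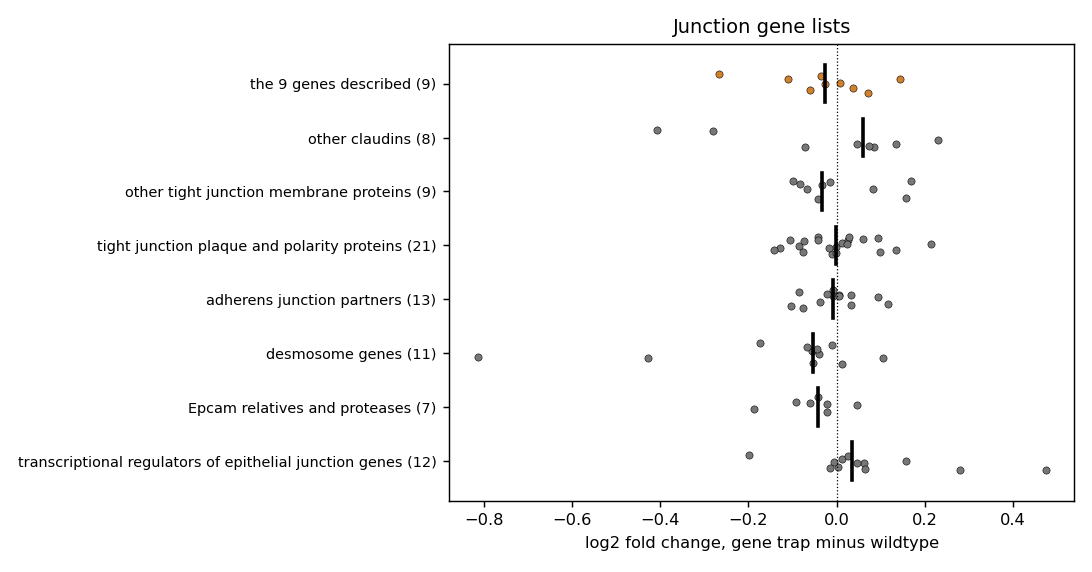
Log2 fold change, gene trap minus wildtype (x axis), of the 9 genes (orange) and of the 81 other junction genes (grey) in their lists (rows, with the number tested). Black bars are list medians, which lie between -0.05 and 0.06.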

How the data were processed

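RNA from mammary tumors was extracted with Trizol and sequenced after a TruSeq Stranded Total RNA library preparation. The submitters' processing notes name STAR (2.7.8a), Partek, DESeq2 and the build mm39. The counter and annotation are not given in the sources used here. Estimated counts per gene were normalized between tumors by the authors, so each deposited value is a signal and not a whole read. Median ratios of the columns to their geometric mean were 1.005 to 1.006, 0 values were 0 and 0.631% were whole within 0.001. Of 16 columns, 10 were matched to tumors by name and 6, named by a number, were not used. Depth is therefore unknown, which leaves the counting error of low genes unmeasured.

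Symbols were found for 22899 (97.0%) of 23609 gene IDs. Values were converted to log2 with a pseudocount of 1, which understates the change of low genes. Genes with a mean of at least 10 were tested with limma (3.58.1, R 4.3.3), empirical Bayes moderation with a variance trend and Benjamini-Hochberg adjustment over all 21034 genes. Exact two-sided permutation over 252 arrangements was used for single values, and 100000 two-sided permutations for correlations. Intervals are 95%. Transcript lengths are from GENCODE mouse release 21, so only levels between genes depend on it. The fit was tested on simulated data. Named genes are the 9 members, *Resf1*, *Krt8*, *Krt18* and the gene of highest mean value in each list. Any list gene at an unadjusted p under 0.05 was to be named, and there was none. The 5 genes most like the mean z score of the members were named as well. *Cldn1*, *Twist1*, *Dsc3*, *Cdh2*, *Snai1*, *Zeb1* and the markers *Krt17* and *Myh11* were added after their values were seen. The members and lists were chosen with earlier results of these data known.

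Alternatives were other pseudocounts and filters, quantile normalization, TMM factors, weights per tumor, no variance trend, the replicate number as a block, values relative to keratins and each tumor left out. Leaving out gene trap replicate 2 together with wildtype replicate 5, and each tumor for the correlations, was added after the data were seen. Figures were drawn with matplotlib (3.10.9).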

Additional observations from a re-analysis of the deposited data

Results flagged for a closer look

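In groups of 5 tumors, Dixon's test compares the gap between an extreme tumor and its neighbour with the whole range (critical value 0.710). It was run on 42 groups, from 21 measures in each genotype. It marked 7. Chance would mark about 1 in 20, or 2.1 groups, if the groups were independent and normally distributed. The measures share genes, since *Krt8* and *Krt18* are also in the luminal sum. The 2 counts are therefore not set against each other as a test.

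Gene trap replicate 5 had an *Epcam* value of 25278, while its group otherwise ranged from 21412 to 22314. Gene trap replicate 2 had a *Cldn7* value of 3893, above 2209 to 2553 elsewhere in its group, and *Cldn3* was also highest in this tumor without passing the limit.

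Among marker sums, that of fibroblasts reached 120046 in gene trap replicate 1, and the rest of its group lay between 51724 and 63060. Gene trap replicate 3 had a T cell sum of 441, and the rest of the group 77.2 to 138. The 1 measured B cell marker was at 168 in that tumor, against 4.24 to 13.9, and at 57.9 in wildtype replicate 1, against 4.45 to 17.1. Skeletal muscle markers were at 8672 in wildtype replicate 5, against 592 to 2568. Gene trap replicate 1 was also lowest of the 10 tumors for *Cldn3* and *Cldn4*, and wildtype replicate 5 was lowest for *Epcam* and *Cldn7*. The part of these cells in those values was not tested.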

How the results depend on the processing

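Under every alternative run, 0 of all genes tested and 0 of the 9 reached an adjusted p under 0.05. Unadjusted counts over all genes ran from 138 relative to the keratins to 692 without gene trap replicate 4, against 479. At an unadjusted p under 0.05, the 9 genes gave 2 with weights per tumor (*Cldn4* and *F11r*) and 1 without gene trap replicate 2 and wildtype replicate 5 (*Cldn4*), and 0 otherwise. The other junction genes gave 1 with weights per tumor (*Cldn1*), 1 with no variance trend (*Twist1*) and 0 to 2 with each tumor left out. Fitting the replicate number as a block gave 426 genes at an unadjusted p under 0.05 and 0 of the 9. Deviations of same-numbered tumors had r of -0.156 to 0.149, with 2 of 5 over 0.1. Of the tumors, 2 correlated best with their own number. Whether same-numbered tumors share a litter or a batch was not tested. Log2 fold changes of small size changed sign with 1 tumor left out, ranging from -0.0109 to 0.0594 for *Epcam*, -0.0860 to 0.0284 for *Cdh1*, -0.191 to 0.0930 for *Cldn3*, -0.12 to 0.00761 for *Ocln* and -0.0169 to 0.0274 for *Tjp1*. *Cldn7* ranged from 0.00294 to 0.207 in these fits and kept its sign. *Tjp1* was also at -0.000697 with TMM factors and -0.0231 relative to the keratins. Without gene trap replicate 2 and wildtype replicate 5, *Epcam* was at -0.00642, *Cldn3* at -0.293 and *Cldn7* at -0.0686. *Cldn4* and *F11r* stayed lower in gene trap tumors under every alternative, and *Cgn* higher. Correlated pairs passing adjustment numbered 0 to 2 with each tumor left out: 0 without gene trap replicate 2, and 2 without wildtype replicate 2, where *Cdh1* and *Tjp1* also passed (r = 0.92). The causes were not tested.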
